A study of Homo sapiens with 12 samples.

Results

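NFE2L2, KEAP1 and 7 genes that NRF2 is known to induce (NQO1, GCLM, GCLC, SLC7A11, TXNRD1, SRXN1 and PGD) were followed across 3 human lung cancer cell lines. The cells had been transfected to raise or block miR-197, or with a control. The level of miR-197 after transfection was not tested here. The members were the non-control probes that carried 1 of these 9 gene names, and each gene had 1 probe, so 9 of 36279 gene and transcript names, and 9 of 50493 probes with a value on every array, were followed. Of the 9, 8 passed the filter on dim probes and were tested among 33712 probes. The NFE2L2 probe did not pass.

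The series held 12 single-dye (Cy3) mRNA arrays, 1 for each of 4 transfections in each of 3 lines. A549 is a lung adenocarcinoma line. PC14 is a lung cancer line, and PC14CDDP is its derivative resistant to cisplatin (CDDP). All cells received a small RNA at 25 nM with the DharmaFECT 1 reagent. The transfections were pre-miR-197, which supplies the miRNA, its negative control NC (also labelled AllStar-NC), LNA-miR-197, a locked nucleic acid (LNA) that blocks the miRNA, and its control LNA-NC. No array held untransfected cells. Within a line each transfection was measured once, so the 3 lines served as the replicates of a transfection and the 4 transfections as the replicates of a line. An SD over the 4 arrays of a line therefore includes differences between transfections. The labels do not say whether repeated cultures were pooled. A549 had a slide to itself and PC14 shared the other slide with PC14CDDP, so an effect of the slide and a difference of A549 from both cannot be told apart. In all 3 lines a transfection was in the same column of its slide, and column and transfection cannot be told apart. On the shared slide PC14 lay in row 1 and PC14CDDP in row 2, so row and line cannot be told apart there.

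NRF2, the protein of NFE2L2, is a transcription factor that switches on defence against oxidants and electrophiles. KEAP1 binds NRF2 and, through the CUL3 ubiquitin ligase, marks it for degradation. When KEAP1 is modified by electrophiles or lost by mutation, NRF2 accumulates, pairs with a small MAF protein and binds antioxidant response elements near genes for glutathione, thioredoxin and NADPH metabolism. NRF2 is regulated largely as a protein, which these arrays did not measure. The pathway is known for its activation in lung cancer, and A549 is widely used as a line with a KEAP1 mutation and active NRF2.

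Both mature forms of miR-197 are printed because the transfected agents act through this miRNA. The labels do not say which arm pre-miR-197 or LNA-miR-197 addresses. The sequences are from RefSeq (GRCh38.p14, plus strand, chr1:109598940-109598961 for the 3p arm and chr1:109598901-109598923 for the 5p arm), with the seed, bases 2 to 8, in capitals.
hsa-miR-197-3p: uUCACCACcuucuccacccagc
hsa-miR-197-5p: cGGGUAGAgagggcagugggagg

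Levels are log2 signals minus the log2 of the 75th percentile reached on that array, so that 0 is the signal of that percentile and 1 is a doubling of it. They compare 1 probe between arrays, and probes were not compared with each other. The scanner software marked 55.8% to 63.1% of the probes of an array as well above background, with 55.8% to 59.5% in PC14CDDP. Probes spotted repeatedly on an array had a median SD of 0.07 to 0.08 (log2). Of the 6 epithelial markers, 6 were well above background on all 4 A549 arrays and 4 on all 4 arrays of PC14 and of PC14CDDP. EPCAM and CDH1 were not well above background on any PC14CDDP array. Of the 5 lung lineage markers, 2, 4 and 3 were well above background on all 4 arrays of A549, PC14 and PC14CDDP, and SFTPB was so on none. Of 11 markers of leukocytes, fibroblasts and endothelium, PTPRC, CD68, COL1A1, VWF and CDH5 were well above background on all 12 arrays and DCN and PDGFRB on none. The summed signal of the 4 leukocyte markers was 411 to 858 units in A549, 1052 to 1898 in PC14 and 1551 to 3009 in PC14CDDP, of the 4 fibroblast markers 182 to 700, 44.6 to 121 and 35.3 to 62.3, and of the 3 endothelial markers 103 to 141, 292 to 455 and 92.8 to 139. Their part in the results was not tested.

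The NFE2L2 probe (chr2:178095693-178095752, hg19, minus strand) carried no usable signal in any line. Its signal was between 2.54 and 6.32 units, while the dimmest probe called well above background on the same arrays was between 7.61 and 13.1 units. None of the 12 arrays marked it as well above background, so no level, fold or test is given for the NRF2 mRNA, and the probe does not show that the mRNA was absent.

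KEAP1, the repressor of NRF2 (chr19:10597262-10597321, hg19, minus strand), was lower in A549 than in PC14 and PC14CDDP. In A549 the levels were 2.06 with NC, 2.04 with pre-miR-197, 2.18 with LNA-NC and 2.82 with LNA-miR-197. In PC14 they were 2.99, 3.28, 3.05 and 3.38, and in PC14CDDP 3.15, 3.23, 3.22 and 3.84, in the same order. Every A549 array lay below every PC14 and PC14CDDP array, and in each line the array with LNA-miR-197 was the highest. KEAP1 was the only member with repeated spots, 10 on each array, whose SD was 0.03 to 0.08 (log2).

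NQO1 (chr16:69744274-69744333, hg19, minus strand), a quinone reductase often read as a marker of NRF2 activity, was highest in A549. Its A549 levels were 2.50 with NC, 2.58 with pre-miR-197, 2.63 with LNA-NC and 2.43 with LNA-miR-197. In PC14 they were 1.08, 1.57, 1.29 and 0.45, and in PC14CDDP 0.86, 0.95, 0.85 and 0.12, in the same order. The A549 arrays were close together and lay above all others, and the array with LNA-miR-197 was the lowest of its line in all 3 lines.

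The 3 members of the glutathione branch also stood highest in A549. GCLC (chr6:53362197-53362256, hg19, minus strand), the catalytic subunit of glutamate-cysteine ligase, averaged 3.91 ± 0.05 over the 4 A549 arrays, 3.30 ± 0.19 over those of PC14 and 2.24 ± 0.40 over those of PC14CDDP (mean ± SD, n = 4). Its highest PC14CDDP array, with LNA-miR-197, reached 2.80, below the lowest PC14 array at 3.03. GCLM (chr1:94352810-94352869, hg19, minus strand), the modifier subunit of the same enzyme, had levels of 3.99 ± 0.18, 3.26 ± 0.16 and 3.15 ± 0.23. Every A549 array of GCLM lay above the arrays of the other lines, and PC14 and PC14CDDP overlapped.

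SLC7A11 (chr4:139085433-139085492, hg19, minus strand), the cystine importer that feeds glutathione synthesis, varied more between transfections than any other tested member. In A549 its levels were 3.77 with NC, 4.57 with pre-miR-197, 4.44 with LNA-NC and 4.80 with LNA-miR-197. In PC14 they were 1.85, 2.57, 2.58 and 3.97, and in PC14CDDP 0.82, 1.63, 1.21 and 3.95, in the same order. The order of transfections was similar in every line, with NC lowest and LNA-miR-197 highest, and the LNA-miR-197 arrays of PC14 and PC14CDDP reached the level of the A549 array with NC.

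TXNRD1 (chr12:104732949-104733008, hg19, plus strand), the cytosolic thioredoxin reductase, was the 1 target with its highest level in PC14CDDP. It averaged 2.42 ± 0.28 for A549, 2.19 ± 0.20 for PC14 and 3.09 ± 0.39 for PC14CDDP (SD, n = 4). SRXN1 (chr20:627563-627622, hg19, minus strand), which restores oxidised peroxiredoxins, had levels of 5.35 ± 0.19, 3.74 ± 0.24 and 4.17 ± 0.45. PGD (chr1:10478911-10478970, hg19, plus strand), an NADPH-producing enzyme of the pentose phosphate pathway, had levels of 5.88 ± 0.07, 4.37 ± 0.15 and 4.39 ± 0.31. For SRXN1 and PGD every A549 array lay above every array of the other lines.

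**Figure D1:**
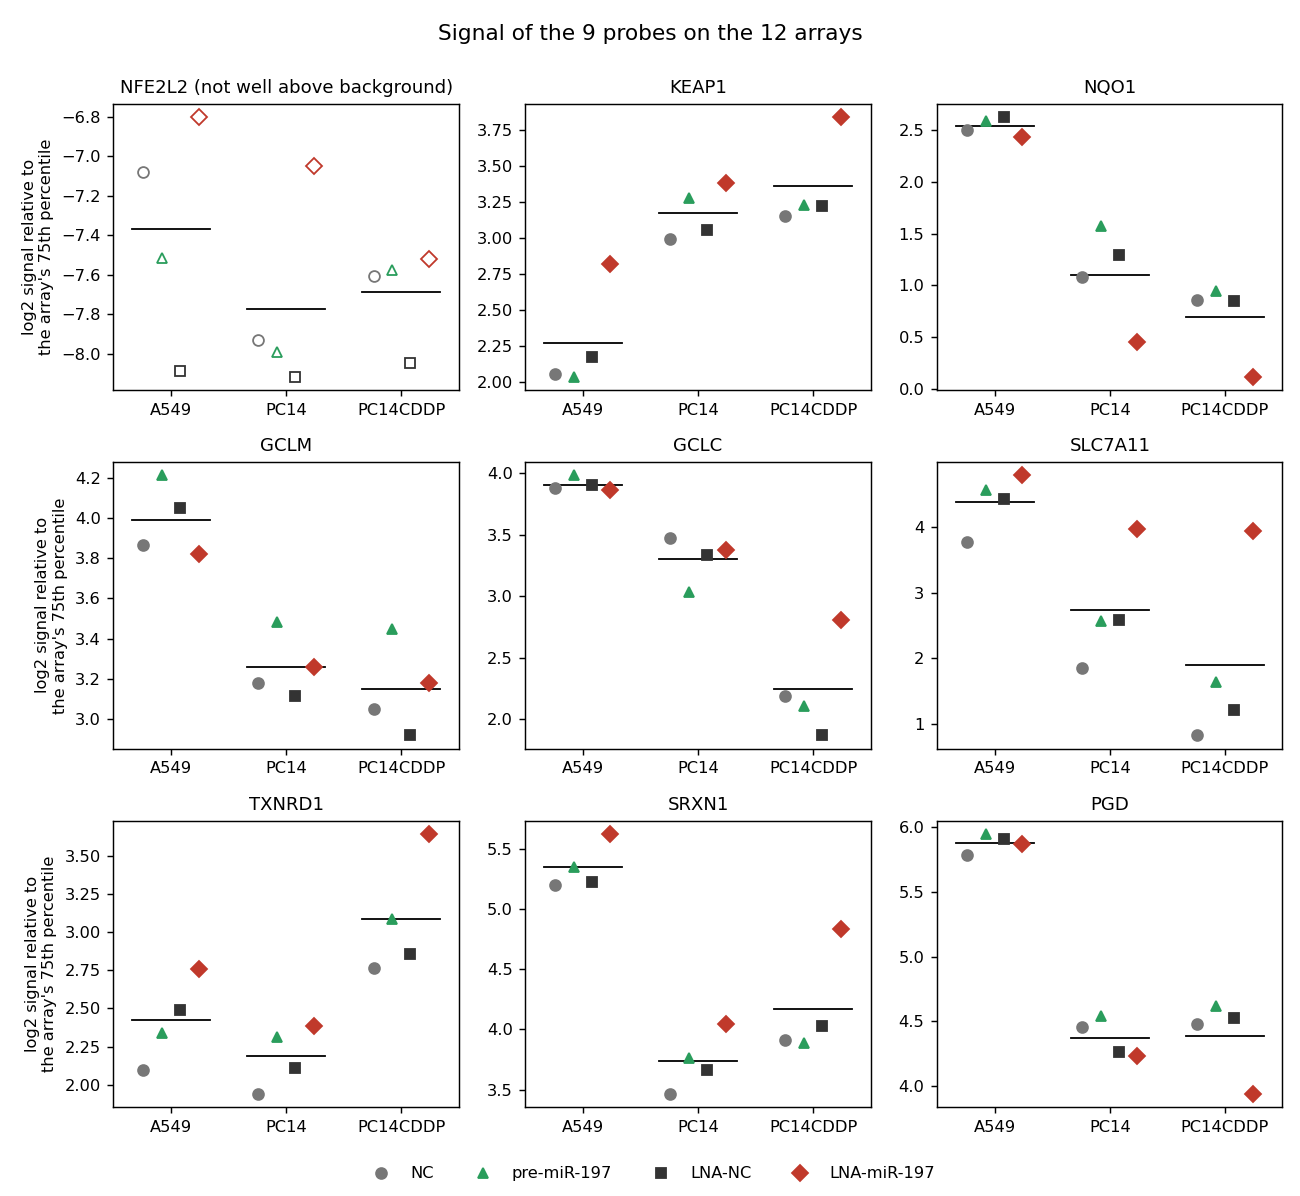
Log2 signal of the 9 probes, minus that of the array's 75th percentile (y axis), in A549, PC14 and PC14CDDP (x axis), with 1 point per array, shaped and coloured by transfection. Lines mark the mean of the 4 arrays of a line, and open symbols mark NFE2L2, whose probe stayed at background throughout. NQO1, GCLM, GCLC, SLC7A11, SRXN1 and PGD have their highest mean in A549, KEAP1 its lowest, and the red diamonds (LNA-miR-197) are the highest points of SLC7A11, KEAP1, TXNRD1 and SRXN1 in every line.

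The comparison of A549 with PC14 asked how the pathway differed between unrelated lines. Of the 8 tested members 6 were higher in A549, 1 was lower and 1 was not called by limma at an adjusted p under 0.05. Of all tested probes 67.4% were called in either direction, and 34.3% of all tested probes were higher and 33.1% lower. The median difference of the members was 1.08 (log2) beside 0.05 over all probes. SLC7A11 was 3.14-fold higher (log2 difference 1.65, SE 0.34, adjusted p = 0.00287) and SRXN1 3.06-fold higher (1.61, SE 0.12, adjusted p = 6.91e-06). PGD was 2.83-fold, NQO1 2.70-fold, GCLM 1.66-fold and GCLC 1.52-fold higher. KEAP1 was 1.87-fold lower in A549 (-0.90, SE 0.11, adjusted p = 0.000129). TXNRD1 differed by 0.24 (SE 0.11, adjusted p = 0.0952). The 4 arrays of each line did not overlap for 6 of the 8 members, beside 57.9% of all probes. The GCLC call was lost without the pre-miR-197 arrays (0.49, adjusted p = 0.0829). TXNRD1 was called higher in A549 after quantile normalization (0.34, adjusted p = 0.025) and after normexp background correction (0.25, adjusted p = 0.0326).

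Against PC14CDDP all 8 tested members were called, 6 higher in A549 and 2 lower, beside 70.1% of all probes in either direction, 35.2% higher and 35% lower. The median of the members was 1.33 beside 0.02 over all probes. SLC7A11 was 5.62-fold higher in A549 (2.49, SE 0.34, adjusted p = 0.000246), NQO1 3.58-fold (1.84, SE 0.15), GCLC 3.18-fold (1.67, SE 0.17), PGD 2.80-fold, SRXN1 2.27-fold and GCLM 1.79-fold. KEAP1 was 2.13-fold lower (-1.09, SE 0.11, adjusted p = 3.64e-05) and TXNRD1 1.59-fold lower (-0.67, SE 0.11, adjusted p = 0.000802). This comparison shares the A549 arrays with the one before, so the 2 sets of differences are not independent. The arrays of the lines did not overlap for 7 of the 8 members, beside 55.6% of all probes. The TXNRD1 call was lost under the methods' t-test (adjusted p = 0.057).

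**Figure D2:**
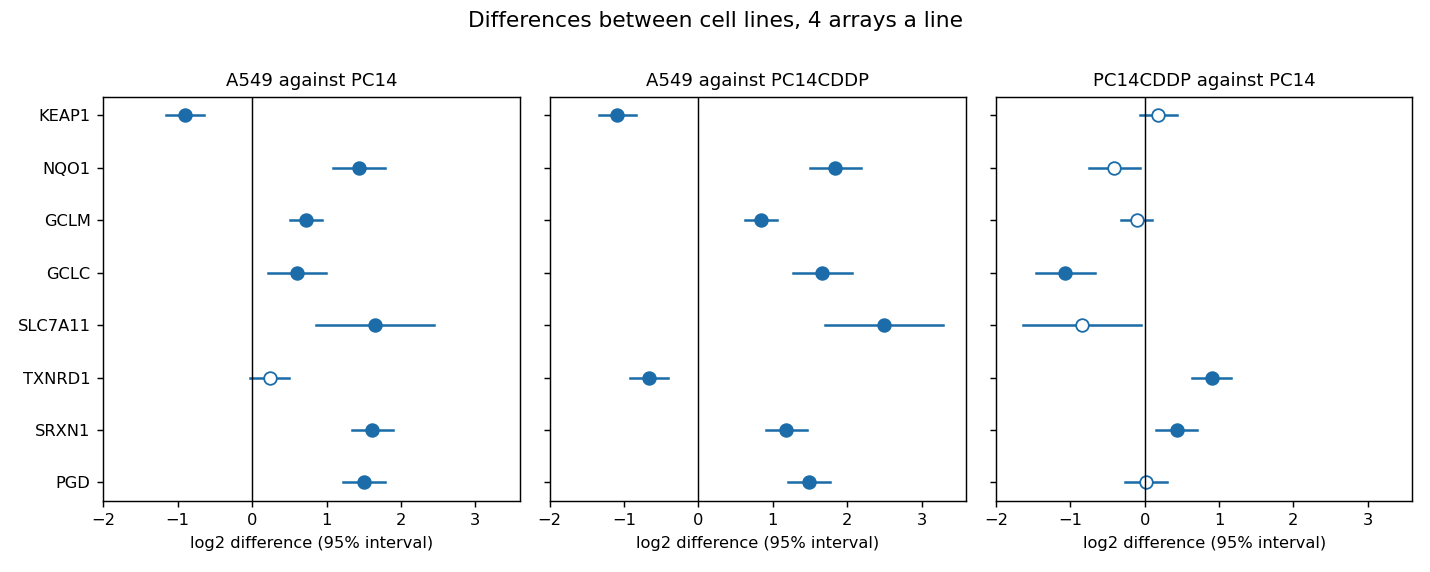
Log2 difference of each tested member between lines (x axis, first named line minus second) with its 95% interval from the limma fit, n = 4 arrays a line. Filled points were called at an adjusted p under 0.05. The 6 members other than KEAP1 and TXNRD1 lie to the right of 0 in both comparisons of A549, KEAP1 to the left, and GCLC and TXNRD1 lie on opposite sides of 0 in PC14CDDP against PC14.

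PC14CDDP against PC14 set the cisplatin-resistant derivative against its parent on the same slide. Of the 8 tested members 2 were higher in PC14CDDP, 1 was lower and 5 were not called, beside 48.8% of all tested probes called, 25.5% higher and 23.3% lower. With NC, pre-miR-197, LNA-NC and LNA-miR-197, GCLC was at 3.47, 3.03, 3.34 and 3.37 in PC14 and at 2.18, 2.11, 1.87 and 2.80 in PC14CDDP. TXNRD1 was at 1.94, 2.31, 2.11 and 2.38 in PC14 and at 2.77, 3.08, 2.86 and 3.64 in PC14CDDP. SRXN1 was at 3.46, 3.77, 3.67 and 4.05 in PC14 and at 3.91, 3.89, 4.03 and 4.83 in PC14CDDP. The arrays of the lines were apart for GCLC and TXNRD1, while the LNA-miR-197 array of PC14 lay above 3 of the PC14CDDP arrays for SRXN1. GCLC was 2.09-fold lower in PC14CDDP (log2 difference -1.06, SE 0.17, adjusted p = 0.00114), while TXNRD1 was 1.87-fold higher (0.90, SE 0.11, adjusted p = 0.000304) and SRXN1 1.35-fold higher (0.43, SE 0.12, adjusted p = 0.0173). The share of probes without overlap was 2 of 8 members, beside 36.1% of all probes.

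The other 5 members were not called. NQO1 differed by -0.41 (95% interval -0.75 to -0.06, adjusted p = 0.0529) and SLC7A11 by -0.84 (-1.63 to -0.05, adjusted p = 0.0768). GCLM differed by -0.11 (-0.32 to 0.11), KEAP1 by 0.19 (-0.07 to 0.44) and PGD by 0.02 (-0.26 to 0.29). The median of the members was -0.05 beside 0.04 over all probes. The SRXN1 call was lost without the NC arrays (adjusted p = 0.0798) and without the LNA-NC arrays (adjusted p = 0.0651), under the methods' t-test (adjusted p = 0.257) and without the transfection term (adjusted p = 0.139). Without the LNA-miR-197 arrays, SLC7A11 (-1.11, adjusted p = 0.000673) and NQO1 (-0.43, adjusted p = 0.0233) were called lower in PC14CDDP as well.

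The comparison of pre-miR-197 with NC asked what raising the miRNA did to the members. None of the 8 was called by limma, beside 0.086% of all tested probes (29 of 33712), and 2 had an unadjusted p under 0.05, beside 15.8% of all probes. SLC7A11 had the widest difference, 0.80 in A549, 0.71 in PC14 and 0.81 in PC14CDDP (mean 0.78, SE 0.40, adjusted p = 0.393). Its 95% interval ran from -0.14 to 1.69. GCLM differed by 0.35, 0.30 and 0.40 in the same order (mean 0.35, SE 0.11, adjusted p = 0.186) and TXNRD1 by 0.24, 0.37 and 0.32 (mean 0.31, SE 0.13, adjusted p = 0.300). These 3 members, NQO1 and PGD were above NC in 3 of 3 lines, which made 5 of 8 members beside 24.4% of all probes. The ratios of these 5 share the same NC arrays. The means of NQO1, PGD, SRXN1 and KEAP1 lay between 0.11 and 0.22. That of GCLC was -0.14, with 0.10 in A549 and -0.44 in PC14.

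LNA-miR-197 against LNA-NC asked what blocking the miRNA did. KEAP1 was the 1 of 8 members called, beside 7.99% of all tested probes in either direction and 4.03% higher. It was 1.45-fold higher with LNA-miR-197, by 0.64 in A549, 0.33 in PC14 and 0.62 in PC14CDDP (mean log2 difference 0.53, SE 0.13, limma adjusted p = 0.0444). Of the 8 members 5 had an unadjusted p under 0.05, beside 27.5% of all probes.

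SLC7A11 had the widest difference of the members in this comparison, and it was unequal between the lines. The A549 arrays gave a log2 ratio of 0.36, those of PC14 1.38 and those of PC14CDDP 2.74, that is 1.28-fold, 2.61-fold and 6.66-fold (mean 1.49, SE 0.40, adjusted p = 0.0583). By its signed difference it ranked 164 of 33712 probes from the highest. With 1 array of a transfection in a line, no test of the difference between lines could be made.

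SRXN1 differed by 0.40, 0.38 and 0.80 in A549, PC14 and PC14CDDP (mean 0.53, SE 0.14, adjusted p = 0.0558). TXNRD1 differed by 0.27, 0.27 and 0.79 (mean 0.44, SE 0.13, adjusted p = 0.0739). NQO1 went the other way, with -0.20, -0.84 and -0.73 (mean -0.59, SE 0.17, adjusted p = 0.0739). All 3 kept their sign in 3 of 3 lines without passing the threshold.

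The differences of GCLC and PGD were near 0 in A549 and PC14 and wider in PC14CDDP. GCLC was -0.05 and 0.04 there and 0.94 in PC14CDDP (mean 0.31, SE 0.20), while PGD was -0.04, -0.03 and -0.58 (mean -0.22, SE 0.14). GCLM was -0.23, 0.15 and 0.26 (mean 0.06, SE 0.11). The 4 members above LNA-NC in 3 of 3 lines (KEAP1, SLC7A11, TXNRD1 and SRXN1) compare with 23.6% of all probes, and the 2 below it (NQO1 and PGD) with 24.4%. The median of the members was 0.38 beside -0.01 over all probes.

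These calls sat close to the threshold. Under normexp background correction, with a filter of all 12 arrays well above background, or with limma's trend and robust options, 5 members were called, KEAP1, SLC7A11, TXNRD1 and SRXN1 higher and NQO1 lower. Calls over all probes rose as well in these settings, to 4359 of 33712, 4295 of 24603 and 4607 of 33712 in that order. The main settings called 2694 of 33712. When any 1 line was left out no member was called, beside 0 of all 33712 probes. KEAP1 then differed by 0.48 without A549 (limma adjusted p = 0.138), 0.63 without PC14 (0.182) and 0.49 without PC14CDDP (0.314).

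**Figure D3:**
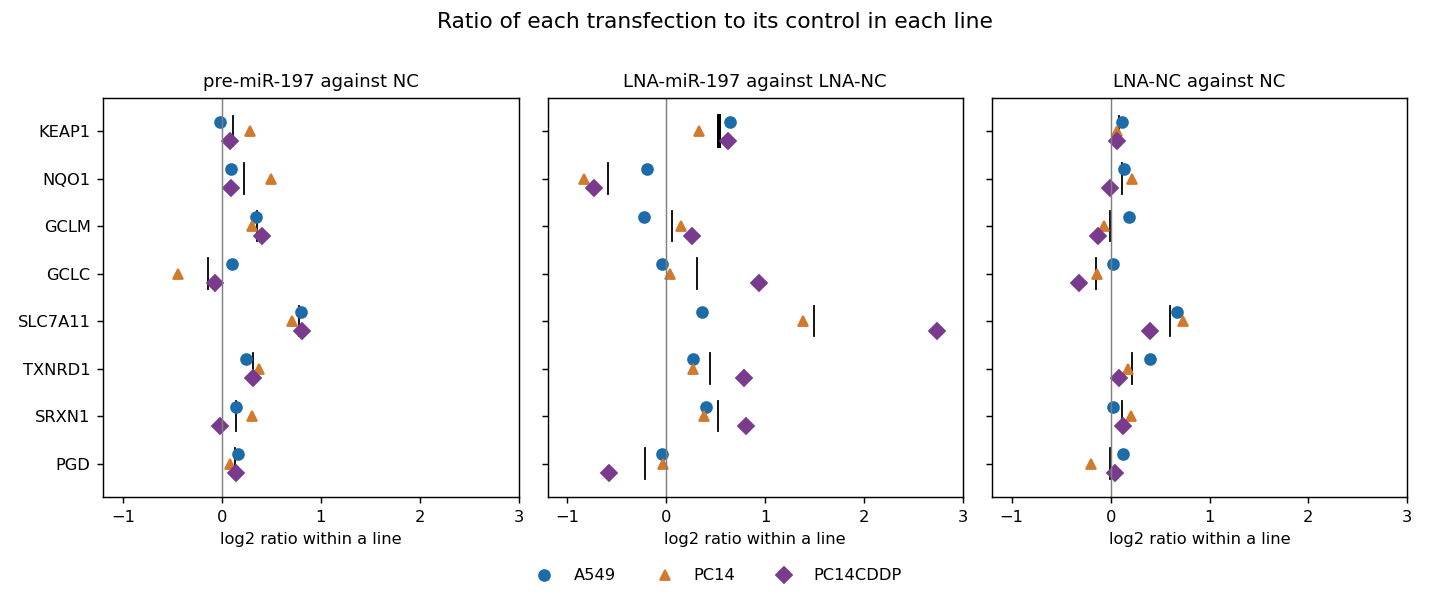
Log2 ratio of each transfection to its control in the same line (x axis) for the 8 tested members, with 1 point per line and a bar at the mean, thick where called. After LNA-miR-197 the points of SLC7A11 spread from 0.36 in A549 to 2.74 in PC14CDDP, those of NQO1 all lie below 0, and those of KEAP1 all lie above 0.

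The controls were also compared with each other. LNA-NC against NC called none of the 8 members, beside 0.46% of all tested probes, and none had an unadjusted p under 0.05, beside 13.3%. SLC7A11 was nonetheless 0.67, 0.73 and 0.39 above NC with LNA-NC (mean 0.60, SE 0.40, adjusted p = 0.580). The ratio of pre-miR-197 to NC for SLC7A11 shares the NC arrays with this one, and against LNA-NC pre-miR-197 differed by 0.14, -0.01 and 0.42. In A549, PC14 and PC14CDDP, TXNRD1 then differed by -0.15, 0.20 and 0.23 and NQO1 by -0.05, 0.28 and 0.10. GCLM and PGD were above LNA-NC with pre-miR-197 in all 3 lines. TXNRD1 was also above NC with LNA-NC, by 0.39, 0.17 and 0.09 in the same order. Set against NC, LNA-miR-197 gave 4 called members, all higher, beside 14.9% of all probes in either direction and 7.05% higher. These were SLC7A11 (2.09, SE 0.40, adjusted p = 0.0175), TXNRD1 (0.66), SRXN1 (0.64) and KEAP1 (0.61). The choice of this control was made after seeing the data.

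The change with pre-miR-197 minus the change with LNA-miR-197 asked whether raising and blocking the miRNA acted differently. None of the 8 members was called, beside 0.0504% of all tested probes, and 2 had an unadjusted p under 0.05, beside 18.4%. The difference of changes was 0.81 for NQO1 (SE 0.24, adjusted p = 0.150) and -0.42 for KEAP1 (SE 0.18, adjusted p = 0.267). For SLC7A11, which was above its control under both agents, it was -0.72 (95% interval -2.01 to 0.58).

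The members did not form 1 pattern over the arrays. Over the 12 arrays, where the lines dominate, Pearson's r with NQO1 was 0.95 for PGD, 0.88 for GCLM, 0.71 for GCLC, 0.67 for SRXN1 and 0.53 for SLC7A11, and -0.46 for TXNRD1 and -0.91 for KEAP1. After subtracting the mean of each line, r with NQO1 was 0.79 for PGD but -0.76 for SLC7A11, -0.74 for SRXN1 and -0.71 for GCLC. Within lines SLC7A11, SRXN1, TXNRD1 and KEAP1 went together, with r from 0.77 to 0.94 between pairs. These values are descriptions over 12 arrays that share lines, slides and transfections.

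The genes whose pattern was most like NQO1 over the 12 arrays, among 18443 names well above background on all arrays, were a probe without a gene name (A_33_P3312564, r = 0.99), TTLL12 (0.98), MTRNR2L8 (0.98), the transcript THC2554230 (0.98) and LONRF3 (0.98). PGD ranked 155 in that order. Within lines the 5 most like it were LOC283352 (0.97), the probes A_24_P24002 (0.96) and A_24_P375683 (0.96), the transcript THC2528599 (0.95) and NUDT8 (0.95).

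Genes of other proteins that control NRF2 were read from a list of 12. In A549 4 were higher and 7 lower than in PC14, beside 67.4% of all probes called, and 2 were higher and 5 lower than in PC14CDDP, beside 70.1%. MAFK, a small MAF partner of NRF2, was 4.98-fold higher in A549 than in PC14, and MAFF, another small MAF, 3.01-fold lower. SQSTM1, which draws KEAP1 into autophagy, was 2.23-fold higher, and BACH1, a repressor at antioxidant response elements, 1.73-fold lower. In PC14CDDP against PC14, 6 were higher and 2 lower, beside 48.8% of all probes called, and CUL3, the ligase scaffold that KEAP1 recruits, was among the higher (0.77, SE 0.08). With LNA-miR-197 MAFF was the 1 of 12 called, beside 7.99% of all probes. It was higher by 0.83 in A549, 1.79 in PC14 and 2.09 in PC14CDDP (mean 1.57, SE 0.21, limma adjusted p = 0.0151), and that call held under 8 of 15 alternatives. With pre-miR-197 none of the 12 was called, beside 0.086% of all probes.

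A list of other antioxidant and detoxification targets of NRF2 was chosen with earlier results of these data known. Of 17 such targets tested, 14 were higher and 2 lower in A549 than in PC14, and 15 higher and none lower than in PC14CDDP. Of all probes 67.4% and 70.1% were called in either direction, and 34.3% and 35.2% higher, beside these 17 targets. The median difference of the 17 was 2.16 and 2.71, beside 0.05 and 0.02 over all probes. AKR1B10, AKR1C1 and AKR1C3, aldo-keto reductases whose probes may share signal with near-identical relatives, were 11.65, 11.48 and 11.60 higher (log2) in A549 than in PC14. CYP4F11 was at background on all 8 arrays of the other lines. Its bound in the main settings was 103-fold higher in A549 than in PC14, which is not a minimum over all settings. Other settings lowered these differences, to 10.63, 9.97 and 10.53 for AKR1B10, AKR1C1 and AKR1C3 and to a fitted 3.94 for CYP4F11 (lowest log2 values over 13 alternatives). The 2 that were lower in A549 than in PC14 were HMOX1, heme oxygenase (-0.80, SE 0.22), and NQO2, a relative of NQO1 (-0.77), named here after their values were seen. In PC14CDDP against PC14 10 of the 17 were lower and none higher, beside 48.8% of all probes called and 23.3% lower. Their median was -0.52 beside 0.04 over all probes. Some were dim in PC14CDDP, where AKR1B10 was well above background on 1 of 4 arrays and AKR1C3 on 3, while HMOX1 and CES1 were so on all 4. The AKR1B10 difference ran from -4.04 to -0.64 over 13 alternatives and was called in 9. The methods' t-test called 5 of the 17, beside 10851 of all 33712 probes.

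The lists of glutathione, NADPH, thioredoxin and other antioxidant genes outside the members stand beside the same 67.4% of all probes called in A549 against PC14. Of 12 glutathione and cystine genes, 9 were higher and 2 lower in A549 than in PC14, with a median of 1.53. GPX2, a glutathione peroxidase, was higher by 8.16 (log2; lowest over 14 alternatives 6.48), and the glutathione conjugate exporters ABCC2 and ABCC3 were higher by 5.64 and 6.13 (log2). Of 10 NADPH genes 7 were higher and 2 lower, with a median of 0.66, among them ME1, IDH1 and TKT at 6.06-fold, 4.69-fold and 2.95-fold. Of 14 thioredoxin and peroxiredoxin genes 7 were higher and 3 lower, with a median of 0.27. Of 6 antioxidant enzymes not picked as NRF2 targets 3 were higher and 2 lower, with a median of 0.22, and SOD1 and SOD2 were the lower ones.

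Against PC14CDDP, A549 was higher for 9 and lower for 3 of the 12 glutathione genes, and higher for 6 and lower for 3 of the 10 NADPH genes. The 14 thioredoxin genes divided into 5 higher and 5 lower, and all 3 lists stand beside 70.1% of all probes.

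In PC14CDDP against PC14, 6 of the 14 thioredoxin and peroxiredoxin genes were higher and 4 lower, beside 48.8% of all probes called. TXN, thioredoxin itself, was 1.95-fold higher. TXNIP, an inhibitor of thioredoxin, was at background on all 4 PC14 arrays. Its bound in the main settings was 87.9-fold higher in PC14CDDP, which is not a minimum over all settings. Its fitted log2 difference went down to 3.71 over 13 alternatives. TXNRD3, a further thioredoxin reductase, was 2.90-fold and PRDX4, a peroxiredoxin, 1.88-fold lower.

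With pre-miR-197, HMOX1 was the 1 of 17 other targets called, beside 0.086% of all probes. It was higher by 1.65 in A549, 1.88 in PC14 and 2.63 in PC14CDDP (mean 2.05, SE 0.25, limma adjusted p = 0.0472), and that call held under 6 of 15 alternatives. HMOX1 was also 1.08, 1.14 and 1.11 higher with LNA-NC than with NC. With LNA-miR-197, OSGIN1, an oxidative stress gene, was the 1 of 17 called (1.21, SE 0.28, adjusted p = 0.0424). RPE, a pentose phosphate epimerase, was called higher (0.61, SE 0.12), SESN2, a stress-induced sestrin, higher (0.84, SE 0.21) and MSRA, a methionine sulfoxide reductase, lower (-1.15, SE 0.19). These calls held under 7, 7, 7 and 8 of 15 alternatives, and they stand beside 7.99% of all probes called in the main settings. With LNA-miR-197 the counts of called genes rose under normexp to 3 of 12 control genes, 2 of 12 glutathione genes, 4 of 10 NADPH genes and 4 of 17 other targets. Calls over all probes rose there as well, from 2694 to 4359 of 33712. No gene of these lists was called when a line was left out, beside 0 of all 33712 probes.

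SLC7A11 is also a target of ATF4, the factor of the amino acid response, so ATF4 and 6 of its targets were read beside it. None of these 7 genes was called with either agent, beside 0.086% of all probes with pre-miR-197 and 7.99% with LNA-miR-197. With pre-miR-197 their median was 0.06. With LNA-miR-197 their means over the lines went both ways about a median of 0.01. DDIT3 was at 1.50 (adjusted p = 0.0632), ATF4 at 0.62 (adjusted p = 0.0751) and TRIB3 at 0.59. DDIT4 was at -0.60, PHGDH at -0.55 and PSAT1 at -0.40. For these genes, as for SLC7A11, the difference was smallest in A549 and widest in PC14CDDP. In A549, PC14 and PC14CDDP, ATF4 was at 0.07, 0.71 and 1.07, TRIB3 at 0.01, 0.53 and 1.24, and PHGDH at -0.09, -0.64 and -0.94. ASNS was lower in A549 and PC14 and higher in PC14CDDP. The difference between lines was not tested. Under normexp and the filter on all 12 arrays 2 of the 7 were called with LNA-miR-197, and 3 with trend and robust or with NC as the control. Over all probes these settings called 4359 of 33712, 4295 of 24603, 4607 of 33712 and 5009 of 33712 in that order, beside 2694 of 33712 in the main settings. SLC3A2, which forms the cystine transporter with SLC7A11, differed by 1.29 with LNA-miR-197 (SE 0.37, adjusted p = 0.0713) and by 0.98 with pre-miR-197 (SE 0.37, adjusted p = 0.262). With LNA-miR-197 SLC3A2 was at 0.14 in A549, 1.64 in PC14 and 2.09 in PC14CDDP. SLC3A2 and these ATF4 genes were named after their values were seen.

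**Figure D4:**
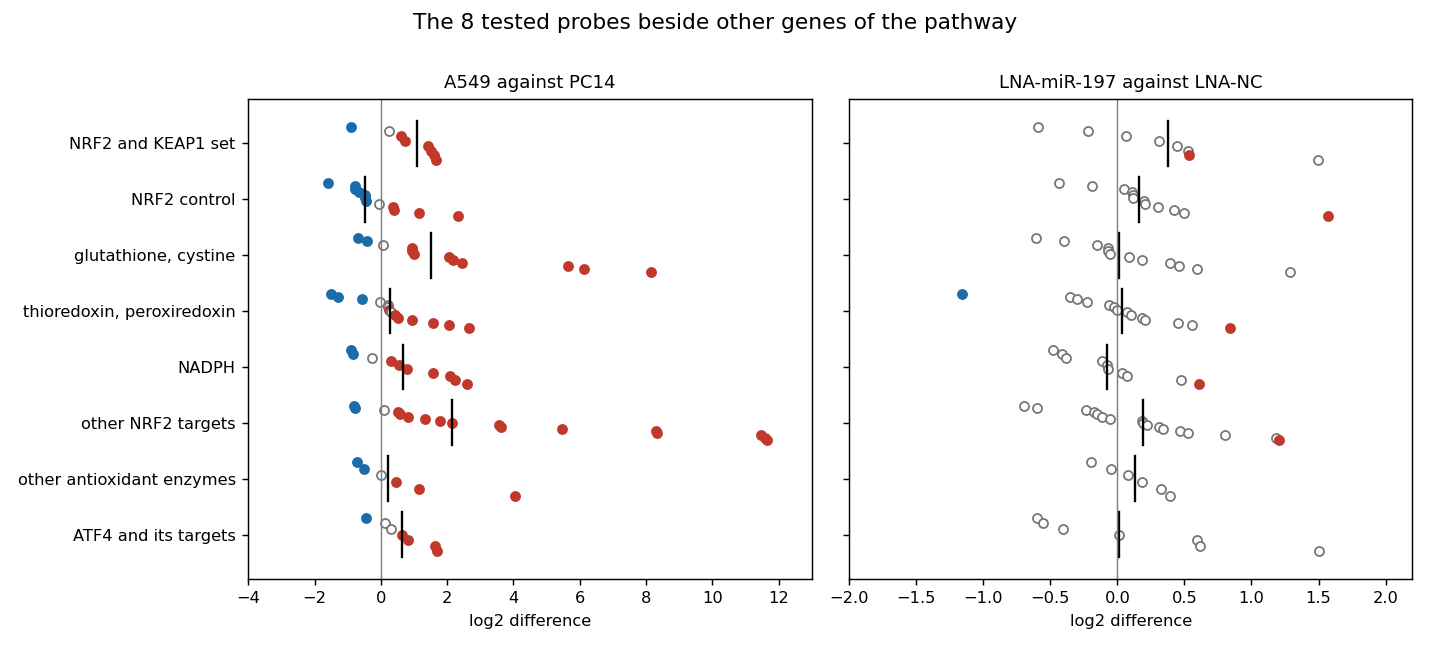
Log2 difference (x axis) of the 8 tested members and of the genes of each list (y axis, 1 point per gene) between A549 and PC14 and after LNA-miR-197, with a black bar at the median. Filled points were called higher (red) or lower (blue), and points of genes at background in a line are fitted values, not bounds. The other NRF2 targets have a median of 2.16 and the control genes of -0.46 between the lines, and 1 control gene, MAFF, is called after LNA-miR-197.

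The promoters of the members were read for the antioxidant response element because several members differed between lines in the same direction. The core TGACNNNGC was searched on both strands from 250 bases before to 50 bases after each RefSeq gene start (GRCh38.p14). It stood in 13.3% of the 35116 windows of all genes, and in 5 of the 11 windows of 8 members, which belong to KEAP1, GCLM, TXNRD1 and PGD. No window was found for SLC7A11. NFE2L2, NQO1, GCLC and SRXN1 held no match, which says only that these letters are not in those windows. The matches of the members called between lines are shown 5′ to 3′ on the strand that holds the core, with the core in capitals and 8 bases on either side.
KEAP1 chr19:10502809-10502833 (minus): ttttattgTGACACGGCgggcgccc
KEAP1 chr19:10502786-10502810 (plus): ggtcaccaTGACTAAGCagagccgg
GCLM chr1:93909448-93909472 (plus): gaagacaaTGACTAAGCagaaatcg
TXNRD1 chr12:104215672-104215696 (plus): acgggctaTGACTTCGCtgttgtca
TXNRD1 chr12:104286922-104286946 (minus): agtcagaaTGACAAAGCagaaatcc
PGD chr1:10398855-10398879 (minus): cacctagaTGACATTGCcccggcga
The TXNRD1 window that holds the first of its matches had a further match across the gene start. The matches of KEAP1, whose level was lowest in A549, and of GCLM and PGD, whose levels were highest there, are descriptions, and binding was not measured.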

How the data were processed

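Total RNA (100 ng) from 12 transfected cultures was hybridized to Agilent SurePrint G3 Human GE v2 8x60K arrays and scanned with Agilent Feature Extraction 10.7.3.1, per the submitters' notes and the file headers. The deposited files hold an intensity per spot after the authors' scanner software had subtracted the background. Their value table equalled it on all 62976 spots of each array. No between-array normalization by the authors is given in the sources used here. Spots of 1 probe were averaged after outliers were left out. Each array's log2 intensity was then set relative to its 75th percentile over non-control spots (613 to 719 units), and probes well above background on at least 3 of 12 arrays were kept (33712 of 50493). The 106 probes without a value on an array were left out.

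Differences were tested with limma 3.58.1 in R 4.3.3, with terms for transfection and line and Benjamini-Hochberg adjustment over all kept probes (adjusted p under 0.05, two-sided). The line is the block, since arrays of a line come from the same cells: correlations of their deviations from the transfection means were 0.84 to 0.95. P-values measure the spread between these arrays only. Every member was named. From each list of pathway genes (81 of 82 genes had a probe, AKR1C2 none) the probe with the highest mean signal was used, and up to 4 called genes with the widest difference could be named in a comparison. A bound was the mean of the bright line over the dimmest signal well above background. The members and lists were chosen with earlier results of these data known. Simulated arrays were used to test the fit. The number of arrays limits the precision. The alternatives were other background corrections, normalizations, filters, model terms and arrays left out, and the t-test of the study's methods.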

Additional observations from a re-analysis of the deposited data

Results flagged for a closer look

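Of 24 groups of 4 arrays (8 tested members in 3 lines), 3 held an array far from the other 3, and all 3 were the LNA-miR-197 array of PC14CDDP. Its KEAP1 level was 3.84 (log2, highest), and the gap to the nearest array was 0.889 of the group's range. Its NQO1 level was 0.12 (lowest), with a gap of 0.879 of the range. Its SRXN1 level was 4.83 (highest), with a gap of 0.849. Chance would mark about 1 group in 20 at this limit if the 4 arrays were repeats. They were 4 different transfections, so that rate does not apply here. The 3 probes share that array and their part in each other's values was not tested.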

How the results depend on the processing

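Of the differences between lines, 7 and 8 members were called for A549 in the main settings and 6 to 8 under each alternative that left out a transfection. For PC14CDDP against PC14, 3 members were called, and 5 after quantile normalization, normexp, the filter on all 12 arrays, trend and robust, or when the fit held that comparison alone, and 2 to 5 when a transfection was left out. The methods' t-test called 2 members and 10851 of all probes there after adjustment, and the fit without a transfection term 2 members. For LNA-miR-197 against LNA-NC the count of members went from 1 to 5 under normexp, the filter on all 12 arrays and trend and robust, to 4 with NC in place of LNA-NC, and to 0 under quantile normalization, no filter, a fit of that comparison alone, the methods' t-test, no replicate block and slide as the block, as when any 1 line was left out (0 to 0). The arrays of a line are paired by the line block. Without that replicate block 0, 3, 6 and 0 of all probes were called for pre-miR-197, LNA-miR-197, LNA-NC and the difference of changes, and with slide as the block 0, 5, 45 and 0.

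Over all probes, pre-miR-197 against NC called 29, and 74 (quantile), 636 (normexp), 3 (no filter), 570 (filter on all 12 arrays), 54 (1 probe per gene), 608 (trend and robust) and 693 (LNA-NC in place of NC). LNA-miR-197 against LNA-NC called 2694, and 4359, 4295 and 4607 under normexp, the filter on all 12 arrays and trend and robust, 581 with no filter and 5009 with NC in place of LNA-NC. LNA-NC against NC called 155, and 89 (no filter) and 325 (trend and robust). The difference of changes called 17, and 784 (normexp), 750 (filter on all 12 arrays), 29 (1 probe per gene), 867 (trend and robust) and 0 (no filter). Fits of 1 comparison alone, and the methods' t-test, called 0 for the transfections. Leaving out a line gave 0 to 0 for pre-miR-197, LNA-miR-197 and the difference, and 0 to 3 for LNA-NC. Of the called probes of LNA-NC against NC 71.0% were higher, and 86.6% under normexp. The share of the difference of changes was 35.3% and 52.0%. Without a filter the median of all probes was 0.16, 0.12 and -0.11 in PC14CDDP against PC14, A549 against PC14 and A549 against PC14CDDP.

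The members that changed sign were not called in the main settings. With pre-miR-197, GCLC was -0.26 to 0.014 when a line was left out and 0.0052 with LNA-NC as control. With LNA-miR-197, GCLM was -0.0083 after quantile normalization and -0.039 to 0.21 when a line was left out, and GCLC -0.0047 to 0.49 (lowest without PC14CDDP for both). LNA-NC against NC gave 0.030 for GCLM and 0.042 for PGD after quantile normalization, and -0.098 to 0.057 and -0.076 to 0.084 when a line was left out. The difference of changes of TXNRD1 was -0.25 to 0.039 when a line was left out (0.039 without PC14CDDP). PGD in PC14CDDP against PC14 was -0.11 after quantile normalization, -0.0056 after normexp and -0.065 to 0.12 when a transfection was left out. The causes were not tested.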
